A study of Rattus norvegicus with 20 samples.

Results

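Timp3, the tissue inhibitor of metalloproteinases with the broadest range of targets, was followed in the arcuate nuclei of female rats together with the other 3 inhibitors of its family, Timp1, Timp2 and Timp4, and with 6 matrix metalloproteinases, Mmp2, Mmp9, Mmp14, Mmp15, Mmp16 and Mmp24. The 10 genes were selected by gene symbol, and Timp3 was chosen by its rise with spasms in these same samples, so its difference between BYS and BNS rats and every other comparison that uses those rats is described here without a test. The array carried 13 oligonucleotides for these 10 genes out of 25926 genes in all, and 9 of the 10 genes were among the 17086 bright enough to test. Mmp9 was the exception.

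The tissue was the hypothalamic arcuate nucleus of female Sprague-Dawley rats on postnatal day 15, with 4 rats in each of 5 conditions. SNS rats were exposed to saline before birth, had no spasms and received saline after birth. BNS rats were exposed to betamethasone, a synthetic glucocorticoid, at 0.4 mg/kg in 2 injections to the dam on gestational day 15, had no spasms and received saline. BYS rats had the same betamethasone exposure, spasms triggered with NMDA on postnatal days 12, 13 and 15, and saline. BYA rats differed from BYS by receiving ACTH, the hormone used to treat infantile spasms, and BYP rats by receiving PMX53, an antagonist of the complement C5a receptor. The labels place these postnatal treatments on days 13, 14 and 15, while the methods of the study start them on day 12. All conditions except SNS therefore shared the prenatal betamethasone, and BYS, BYA and BYP shared the spasms.

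Each rat was 1 channel of a two-colour array, and all spot intensities were put on 1 log2 scale by quantile normalization, so that a difference of 1 is a factor of 2. The 2 channels of 9 of the 11 arrays held 2 rats of the same condition, and samples of a condition that shared an array lay closer to each other (mean distance 0.261 on the log2 scale) than samples on different arrays (0.362). The other 2 arrays each paired a BYA rat with a rat of another series, which the names of the raw data give as a male SNS rat. Each condition lay on slides of its own, 2 for BYA and 1 for each of the others, so slide and condition cannot be told apart. Spots were about 16.0 times brighter than their background at the median in BNS and BYS, 9.06 times in BYP, 7.43 times in BYA and 6.94 times in SNS. For BYA replicate 3 the dye label and the order of names of the raw data pointed to different channels. The rat behind its values is therefore uncertain and could be the male SNS rat on that array. The main results that rest on BYA replicate 3 are also given without it. Arcuate neurons were present in the tissue, since 9 of 10 of their markers, Agrp, Npy, Pomc, Kiss1, Tac3 and Ghrh among them, stood well above background in every sample. Of 10 choroid plexus markers, Ttr, Folr1 and Otx2 were also well above background in all 20 samples, and 2 of 8 anterior pituitary markers, Lhb and Pitx1, were so too, whereas of the other pituitary hormones Cga was so in 15 samples, Fshb in 5, Tshb in 2, Gh1 in 1 and Prl in none. In whole tissue, fewer cells of a type and less RNA per cell cannot be told apart.

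Matrix metalloproteinases are zinc enzymes that cut collagens, laminins, proteoglycans and many cell surface proteins, and they are made as inactive precursors. The tissue inhibitors bind the active enzymes. Timp3 differs from its relatives in that it is held in the matrix and also blocks ADAM and ADAMTS enzymes, among them ADAM17, which sheds tumour necrosis factor from cells. In the brain these proteins act on the basement membrane of vessels and on the perineuronal matrix. Timp1, Timp3 and Timp4 each lie inside a synapsin gene. In the GRCr8 assembly, Timp3 occupies chr7:19408539-19459558 within Syn3, Timp1 chrX:3766509-3772578 within Syn1, and Timp4 chr4:149978667-149985350 within Syn2.

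The Timp3 measurement rests on 1 oligonucleotide of 60 bases, with 1 spot on each array, which the array's design places in the rn4 build on the minus strand. It is shown because every Timp3 value below comes from it, beside the oligonucleotides of its relatives Timp4 and Timp1, which are named again below. Capitals mark the longest run of identical bases shared with the Timp3 oligonucleotide, or, in Timp3, with that of Timp4.
Timp3, rn4 chr7:19679721-19679780, minus strand: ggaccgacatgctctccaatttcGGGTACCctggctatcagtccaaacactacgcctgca
Timp4, rn4 chr4:151375800-151375859, minus strand: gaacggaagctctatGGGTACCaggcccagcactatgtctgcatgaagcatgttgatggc
Timp1, rn4 chrX:12542700-12543703, minus strand: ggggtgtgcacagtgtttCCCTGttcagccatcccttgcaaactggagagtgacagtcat
The Timp1 position spans 1004 bases in the genome for 60 bases of oligonucleotide. The longest shared run was 7 bases with Timp4 and 5 bases with Timp1, and it was at most 6 bases for the oligonucleotides of the metalloproteinases and 5 for that of Timp2.

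Timp3 was lowest in BNS, at 8.65 ± 0.13 (SD, n = 4), and highest in BYS, at 9.63 ± 0.36, a difference of 0.98 on the log2 scale, or 1.97-fold. The SNS rats read 9.10, 9.08, 9.07 and 9.09, the BNS rats 8.72, 8.80, 8.51 and 8.57, and the BYS rats 9.89, 9.10, 9.70 and 9.82. All 4 BNS rats thus lay below all SNS and BYS rats, and BYS replicate 2 was the only BYS rat near the SNS level. The BYA rats read 9.49, 9.39, 9.14 and 9.55, and the BYP rats 9.60, 9.31, 8.97 and 9.10. Every rat with spasms, treated or not, lay above every BNS rat. These BYS, BNS and BNS-based values are descriptions, because they are the contrast by which the gene was chosen. Leaving out any 1 of the 8 rats kept the BYS minus BNS difference between 0.89 and 1.16, and with the processed signals of the scanner software it was 1.43. The oligonucleotide was well above background in all 20 samples and saturated in none, with a signal over background of 8.80 to 12.9 in BNS and 16.1 to 35.9 in BYS. Over all spots the median signal over background was alike in these conditions, while 75.5% of spots in BNS and 79.4% in BYS were well above background.

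**Figure D1:**
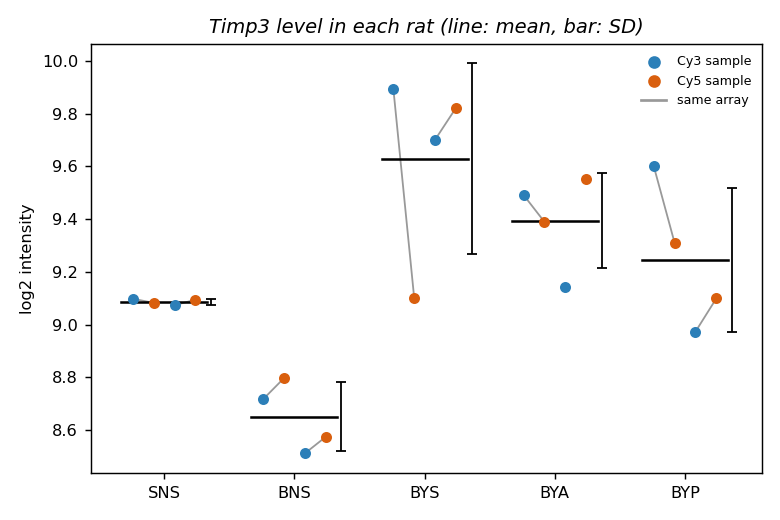
Timp3 level in each rat (vertical axis, log2 normalized intensity) by condition (horizontal axis), with Cy3 samples in blue, Cy5 samples in orange, and grey lines joining rats on the same array; black lines are means and bars SD (n = 4). The 4 BNS rats, at 8.51 to 8.80, sit below all other rats, and the SNS rats lie within 9.07 to 9.10.

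The order of the mean levels was BYS, BYA, BYP, SNS and BNS. The ranges of BYS and BYA overlapped, as did those of BYA and BYP and those of BYP and SNS, whereas those of SNS and BNS did not. Relative to BYS, Timp3 differed by −0.23 in BYA and −0.38 in BYP, and relative to BNS it was 0.74 higher in BYA and 0.60 higher in BYP, again as descriptions. Without BYA replicate 3 the BYA differences were −0.14 from BYS and 0.84 from BNS. With the processed signals, the BNS minus SNS difference was −0.74 in place of −0.44, and the BYA and BYP differences from BNS were 1.14 and 0.98. The comparisons among BYA, BYP and SNS use neither BYS nor BNS rats and were tested with limma over all genes, and Timp3 passed in none of them. The BYA minus SNS difference was 0.31 (SE 0.16, 95% interval −0.02 to 0.64, adjusted p = 0.144), although no BYA rat overlapped the SNS rats. Without BYA replicate 3 it was 0.40 with an adjusted p of 0.0705. The BYP minus SNS difference was 0.16 (interval −0.17 to 0.49, adjusted p = 0.465), and BYP minus BYA was −0.15 (interval −0.48 to 0.18, adjusted p = 0.729), or −0.25 without BYA replicate 3 (adjusted p = 0.516). Tested on the single oligonucleotide over all oligonucleotides, the adjusted p were 0.143, 0.465 and 0.735 by limma.

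Markers of other cell types were set beside these values. Between BNS and BYS, the summed level of the 10 microglial markers tested did not overlap, at 27148 to 32084 intensity units in BNS and 33387 to 44751 in BYS. The sum weighs bright genes most, and the single markers went both ways, from 0.59 for C1qb to −0.49 for Cx3cr1. Their median difference was 0.12, and limma called 0 of 10, where it called 0.0293% of all genes. At an unadjusted p under 0.05 it gave 5 of 10, beside 6.92% of all genes. The sums of the 9 endothelial markers (24706 to 30627 and 26157 to 30607), of the 11 markers of pericytes and smooth muscle (10574 to 11756 and 10033 to 11824) and of the 11 meningeal markers (16617 to 44837 and 20292 to 38018) overlapped between those conditions. The 4 choroid plexus markers bright enough to test summed to 4629 to 8001 in SNS and to at most 4401 in any other condition. The part of these cells in the Timp3 values was not tested.

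The host gene Syn3, which codes for a synaptic vesicle protein, was dim. Its means were 7.56 in SNS and BYP, 7.70 in BNS, 7.71 in BYS and 7.78 in BYA, and it was well above background in 8 of 20 samples. Between BYS and BNS, where Timp3 differed by 0.98, Syn3 differed by 0.00 (SE 0.09, adjusted p = 1.00 by limma). Syn1 and Syn2, the hosts of Timp1 and Timp4, did not pass either, so that limma called 0 of the 3 synapsins in each of the 10 comparisons. A single synapsin had an unadjusted p under 0.05 in each of BYA against SNS, BYA against BNS and BYP against BYA, where 42.4%, 13.1% and 13.6% of all genes did. No synapsin did in the other comparisons, where 6.92% to 41.5% of all genes did. Only Syn3 between BYA and SNS had an unadjusted p under 0.05 among the synapsins in the comparisons against SNS, with a difference of 0.22 (adjusted p = 0.0633), and it passed without BYA replicate 3 (0.28, adjusted p = 0.0239).

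Over the 20 samples, after the dye effect was removed, genes with a pattern among the most like that of Timp3 were Tet3, which oxidizes methylated cytosine, Rbm42, an RNA-binding protein, Plekhg1, a guanine nucleotide exchange factor, and LOC685707. Their Pearson correlations with Timp3 were 0.81, 0.79, 0.79 and 0.78, picked from the highest of 16298 genes, so their size is a result of that choice. After the means of the conditions were removed as well, the correlations were 0.75, 0.72, 0.69 and 0.81, and without BYA replicate 3 the 4 correlations over 19 samples were 0.79 to 0.81. The samples share arrays, slides and brightness, and no p is given. Among the members the correlation was highest for Timp4, at 0.52, and lowest for Mmp16, at −0.43, and that of Syn3 was 0.19.

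For the other 8 members that could be tested, limma made 6 calls at an adjusted p under 0.05 in 80 tests, all of them against SNS. Between BNS and SNS, 1 of 8 members passed, where 28.6% of all genes did. The count was 1 of 8 between BYS and SNS (27.1% of all genes), 2 of 8 between BYA and SNS (31.3%) and 2 of 8 between BYP and SNS (28.9%). The share of members called was 12.5% or 25.0%. With 8 members, 1 gene moves this share by 12.5%, so nothing is read from its distance to that of all genes. The median of the members' differences lay between 0.02 and 0.05, with the median of all genes between −0.04 and −0.03. No member passed between BYS and BNS (0.0293% of all genes called), BYA and BYS (0%), BYP and BYS (0.0351%), BYP and BYA (0.158%), BYA and BNS (0.117%) or BYP and BNS (1.5%). At an unadjusted p under 0.05, limma gave 0, 1, 2, 1, 1 and 4 of 8 members in these 6 comparisons, beside 6.92%, 8.07%, 8.5%, 13.6%, 13.1% and 17.8% of all genes. The methods' t-test gave 0, 1, 1, 1, 1 and 4. Comparisons that have a condition in common share its samples. The single calls in BNS and BYS were both Mmp24, and each count of 1 was 0 without SNS replicate 1 or SNS replicate 2.

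**Figure D2:**
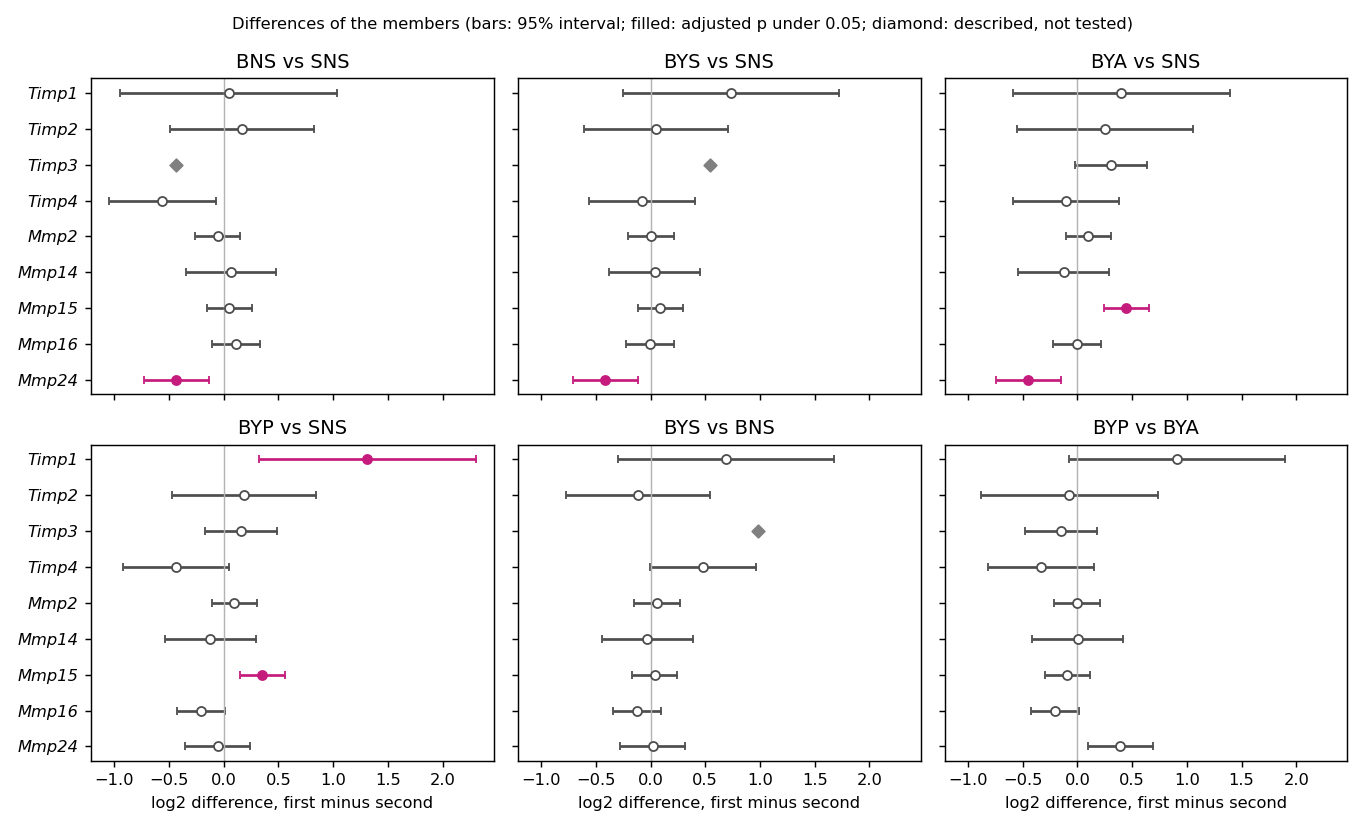
Log2 difference of each member (horizontal axis, first condition minus second) in 6 comparisons, with the 95% interval of limma; filled symbols have an adjusted p under 0.05, open symbols do not, and grey diamonds are Timp3 values described without a test. The 6 filled symbols are Mmp24 in 3 comparisons with SNS, Mmp15 in 2 and Timp1 in 1.

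Timp1, the inhibitor induced by many inflammatory signals, varied most among the inhibitors. It was near 11.2 in SNS (11.20 ± 0.20) and BNS (11.24 ± 0.16), and reached 12.51 ± 0.81 in BYP (SD, n = 4). The BYP rats read 12.45, 11.51, 13.48 and 12.60, and the SNS rats 10.97, 11.10, 11.35 and 11.37. All 4 BYP rats lay above all SNS and BNS rats. The BYP minus SNS difference of 1.31 (SE 0.47), or 2.48-fold, passed the limma test with an adjusted p of 0.0443, and BYP minus BNS, at 1.27, did not (adjusted p = 0.17). The first call ended when any 1 of the 8 rats other than BYP replicate 2 was left out (adjusted p up to 0.146), and also with the array as a random block (0.0857). Of 10 astrocyte markers, 2 rose between BYP and SNS, Gfap by 0.86 and S100b by 1.31 (limma adjusted p of 0.0393 and 0.00963), and 8 did not pass. Of 10 microglial markers, 2 rose, Ctss by 0.89 and Itgam by 0.72 (0.00775 and 0.0475), and 2 fell, P2ry12 by 0.98 and Cx3cr1 by 0.61 (0.00110 and 0.00912), beside 28.9% of all genes called. The 10 microglial markers summed to 30727 to 35752 in SNS and 36753 to 47283 in BYP, and their part in the Timp1 value was not tested.

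In BYS, Timp1 split by array. Replicates 1 and 2, which shared an array, read 10.97 and 10.696, and replicates 3 and 4, on the other array, read 13.14 and 12.92. The means of the arrays were 2.20 apart, whereas BYS rats within an array differed by at most 0.28. Timp1 had 10 spots on each array, and its ratio of signal to background was 62.4 and 74.0 on the first array and 392 and 283 on the second. The mean of BYS, 11.93 ± 1.28, therefore describes no single rat, and neither BYS minus BNS (0.69, interval −0.30 to 1.68, adjusted p = 0.874 by limma) nor BYS minus SNS (0.74, adjusted p = 0.253) passed. The 4 BYA rats read 12.01, 11.22, 10.998 and 12.17, and BYA minus SNS was 0.40, or 0.65 without replicate 3, without passing (adjusted p of 0.54 and 0.349 by limma). Rats that share an array cannot be separated from the array here.

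Timp2, which inhibits metalloproteinases and also takes part in the activation of Mmp2 by Mmp14, was bright in all conditions and split by array in SNS. SNS replicates 1 and 2 read 13.59 and 13.59, and replicates 3 and 4 on the other array 15.25 and 15.17, so that the array means were 1.62 apart. The other conditions lay between these, at 14.56 ± 0.15 in BNS, 14.45 ± 0.19 in BYS and 14.58 ± 0.31 in BYP (SD, n = 4). In BYA the spot was marked as an outlier on the array of replicates 1 and 2, so the fit used only replicates 3 and 4, at 14.70 and 14.62. No Timp2 difference passed, and the largest, BYA minus SNS, was 0.26 (SE 0.38, adjusted p = 0.64 by limma), or 0.30 without BYA replicate 3, where a single BYA rat remains (adjusted p = 0.691).

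Timp4, the inhibitor with the most restricted expression, was measured by 2 oligonucleotides. It was lowest in BNS, at 11.19 ± 0.43 (SD, n = 4), and highest in SNS, at 11.75 ± 0.34. The BNS rats read 11.56, 11.48, 10.62 and 11.09, the BYS rats 11.97, 11.41, 11.65 and 11.65, and the SNS rats 12.11, 11.95, 11.56 and 11.38. The ranges overlapped, and the array means were 0.56 apart in SNS and 0.67 apart in BNS. The BNS minus SNS difference was −0.56 (interval −1.05 to −0.08, adjusted p = 0.0763 by limma) and BYS minus BNS 0.48 (interval −0.003 to 0.967, adjusted p = 0.719). The oligonucleotides gave −0.71 and −0.41 in the first comparison, and tested over all oligonucleotides only the former passed (limma adjusted p of 0.0146 and 0.296). The latter split by array in SNS, at 11.81 and 11.77 in replicates 1 and 2 and 10.74 and 10.65 in replicates 3 and 4. Timp4 was −0.11 from SNS in BYA and −0.44 in BYP (adjusted p of 0.757 and 0.159), where the Timp3 differences were 0.31 and 0.16. The oligonucleotide that passed in BNS also passed in BYP, at −0.71 (adjusted p = 0.015), and the other was −0.17 there (0.68). On the gene level the BYP rats read 12.07, 10.95, 11.33 and 10.89.

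**Figure D3:**
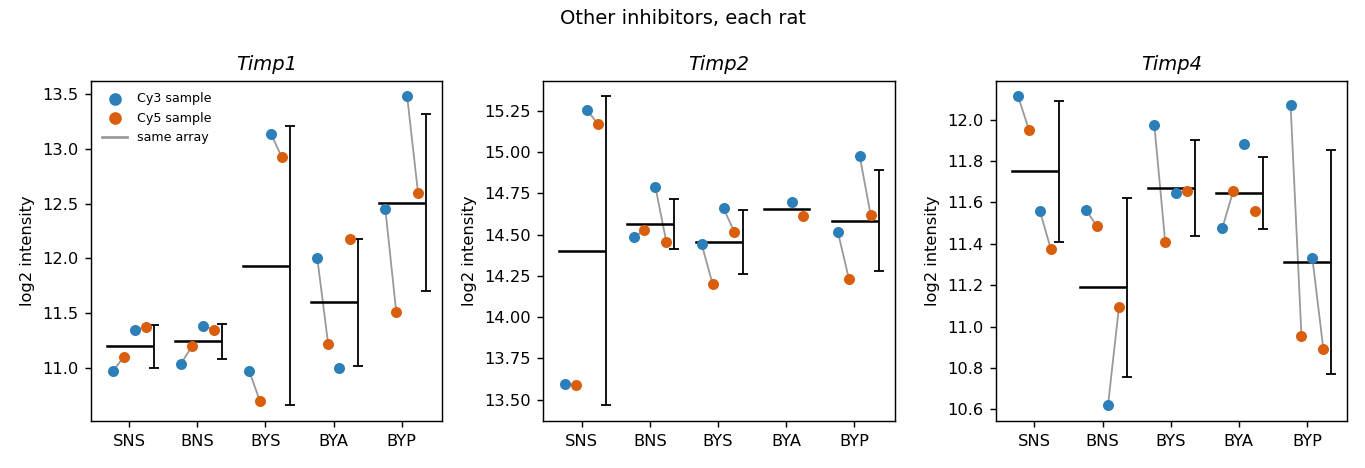
Levels of Timp1, Timp2 and Timp4 in each rat (vertical axes, log2 normalized intensity) by condition, with dyes in colour, grey lines joining rats on the same array, means as black lines and SD as bars where all 4 rats were measured. Timp1 in BYS and Timp2 in SNS fall into pairs by array, with array means 2.20 and 1.62 apart.

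Among the enzymes, Mmp2 and Mmp9 are gelatinases, which cut collagen of basement membranes. Mmp9 was well above background in none of the 20 samples, with a signal of 1.43 to 4.76 times the background over its 10 spots, and was not tested. Mmp2 was measured by 2 oligonucleotides and its gene level was 9.13 ± 0.16 in SNS, 9.08 ± 0.14 in BNS, 9.14 ± 0.03 in BYS, 9.23 ± 0.13 in BYA and 9.23 ± 0.10 in BYP (SD, n = 4). No difference passed, and BYA minus BNS was 0.16 (interval −0.05 to 0.36), or 0.12 without BYA replicate 3, and BYP minus BNS 0.15. The mean of the oligonucleotides hides opposite directions. The brighter one differed from SNS by −0.31 to −0.21 in the other conditions and passed in none of these comparisons (limma adjusted p of 0.0542 to 0.162), whereas the dimmer one was higher by 0.42 in BYA and 0.49 in BYP (limma adjusted p of 0.0238 and 0.0103). The dimmer one was higher by 0.41 in BYA without BYA replicate 3 (adjusted p = 0.0442). That dimmer oligonucleotide was well above background in 2 of 4 SNS rats and 15 of 20 rats in all. It passed the filter only through BYS and BYP, where all 4 rats were well above background. The filter thus favoured its rise in BYP over SNS. It is given because it parts from its partner:
Mmp2, rn4 chr19:15246805-15246864, minus strand: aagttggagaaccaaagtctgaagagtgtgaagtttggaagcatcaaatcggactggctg

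Mmp14, Mmp15, Mmp16 and Mmp24 are membrane-type enzymes, which sit on the cell surface, and Mmp14 is the main activator of Mmp2. The means of Mmp14 lay between 11.52 ± 0.22 in BYA and 11.72 ± 0.13 in BNS (SD, n = 4), and no difference passed. The rats spread more in BYP (SD 0.49) and SNS (SD 0.36), where the array means were 0.80 and 0.59 apart. The BYS minus BNS difference of Mmp14 was −0.03 (SE 0.20, interval −0.44 to 0.38). Mmp16 ranged from 9.40 ± 0.17 in BYP to 9.72 ± 0.06 in BNS. The BYP rats, at 9.44, 9.22, 9.32 and 9.61, lay below the BNS rats, at 9.70, 9.76, 9.65 and 9.77, a difference of −0.32 that did not pass (interval −0.54 to −0.10, adjusted p = 0.116 by limma).

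Mmp15 was higher in both treated conditions. The SNS rats read 10.77, 10.76, 10.64 and 10.62, the BYS rats 10.92, 10.65, 10.76 and 10.81, the BYA rats 10.998, 11.01, 11.25 and 11.31, and the BYP rats 11.13, 11.12, 11.11 and 10.84. On this mean of 2 oligonucleotides, all BYA rats lay above all SNS, BNS and BYS rats, and all BYP rats above all SNS and BNS rats. Against SNS the differences were 0.45 (SE 0.10, adjusted p = 0.00247) in BYA and 0.35 (SE 0.10, adjusted p = 0.0122) in BYP, and both passed the limma test. The former was 0.41 without BYA replicate 3 (adjusted p = 0.00739). Against the untreated rats with spasms, BYA was higher by 0.36 (adjusted p = 0.325, or 0.275 without replicate 3) and BYP by 0.26 (adjusted p = 0.454), and neither passed. The BYP minus BYA difference was −0.09 (interval −0.30 to 0.11), or −0.06 without BYA replicate 3 (interval −0.28 to 0.17). With the array as a random block the BYA call remained (adjusted p = 0.00966) and the BYP call did not (0.0558). Both calls ended with the processed signals (0.29 and 0.162), with median scaling (0.0584 and 0.0913), and when oligonucleotides had to be well above background in all 20 samples (0.0515 and 0.0531).

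Mmp15 also rested on 2 oligonucleotides. The brighter one had a mean of 13.86 in SNS, 14.21 in BYA and 14.21 in BYP, and on its own it was higher than in SNS by 0.35 in BYA and 0.36 in BYP (limma adjusted p of 0.0489 and 0.0502 over all oligonucleotides). Its BYA call ended without BYA replicate 3 (0.29, adjusted p = 0.127). On it the BYP rats, at 13.87 to 14.40, overlapped the SNS rats, at 13.76 to 13.99, and the BNS rats, at 13.58 to 13.91. Against BYS this oligonucleotide was higher by 0.48 in both BYA and BYP, without passing (adjusted p of 0.389 and 0.315). Between BYS and SNS the brighter and the dimmer one went opposite ways, at −0.13 and 0.30 (limma adjusted p of 0.502 and 0.0722). The dimmer one passed in both comparisons of treated rats with SNS (0.54 and 0.35, adjusted p of 0.00294 and 0.0377, the former 0.00637 without BYA replicate 3), but was not well above background in any SNS rat and was so in 11 of 20 rats, with means from 7.54 in SNS to 8.08 in BYA. The filter kept it only through BYS, where all 4 rats were well above background. It is shown because of this dim signal:
Mmp15, rn4 chr19:10128275-10128334, minus strand: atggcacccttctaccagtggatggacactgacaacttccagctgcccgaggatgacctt

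Mmp24, a neuronal enzyme that cuts N-cadherin at synapses, was lower than in SNS in the untreated and ACTH-treated betamethasone rats and near SNS in BYP. The SNS rats read 13.17, 13.57, 13.01 and 13.12, the BNS rats 12.79, 13.00, 12.46 and 12.89, and the BYP rats 13.18, 13.38, 12.97 and 13.13. The BYS rats read 12.43, 12.73, 12.87 and 13.18, and the BYA rats 12.68, 12.57, 12.82 and 13.00. BNS and BYA did not overlap SNS, and BYS and BYP did. The differences from SNS were −0.43 (adjusted p = 0.0284) in BNS, −0.41 (0.0367) in BYS and −0.45 (0.0225) in BYA, each with an SE of 0.14 and past the limma threshold, and −0.06 (0.79) in BYP. Without BYA replicate 3 the BYA difference was −0.51 (0.0182). The BYP minus BYA difference itself, 0.39 (interval 0.10 to 0.69), did not pass (adjusted p = 0.231). It was 0.45 without BYA replicate 3 (adjusted p = 0.157). With the processed signals of the scanner software the 3 called differences were 0.06, 0.09 and 0.15, opposite in sign, and with the array as a random block none was called (adjusted p of 0.0739, 0.0909 and 0.059). All 3 calls ended without SNS replicate 1 or SNS replicate 2 (adjusted p of 0.0539 to 0.118), that of BNS also without BNS replicate 3 or 4, that of BYS without BYS replicate 1 or 2, and that of BYA without BYA replicate 2.

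**Figure D4:**
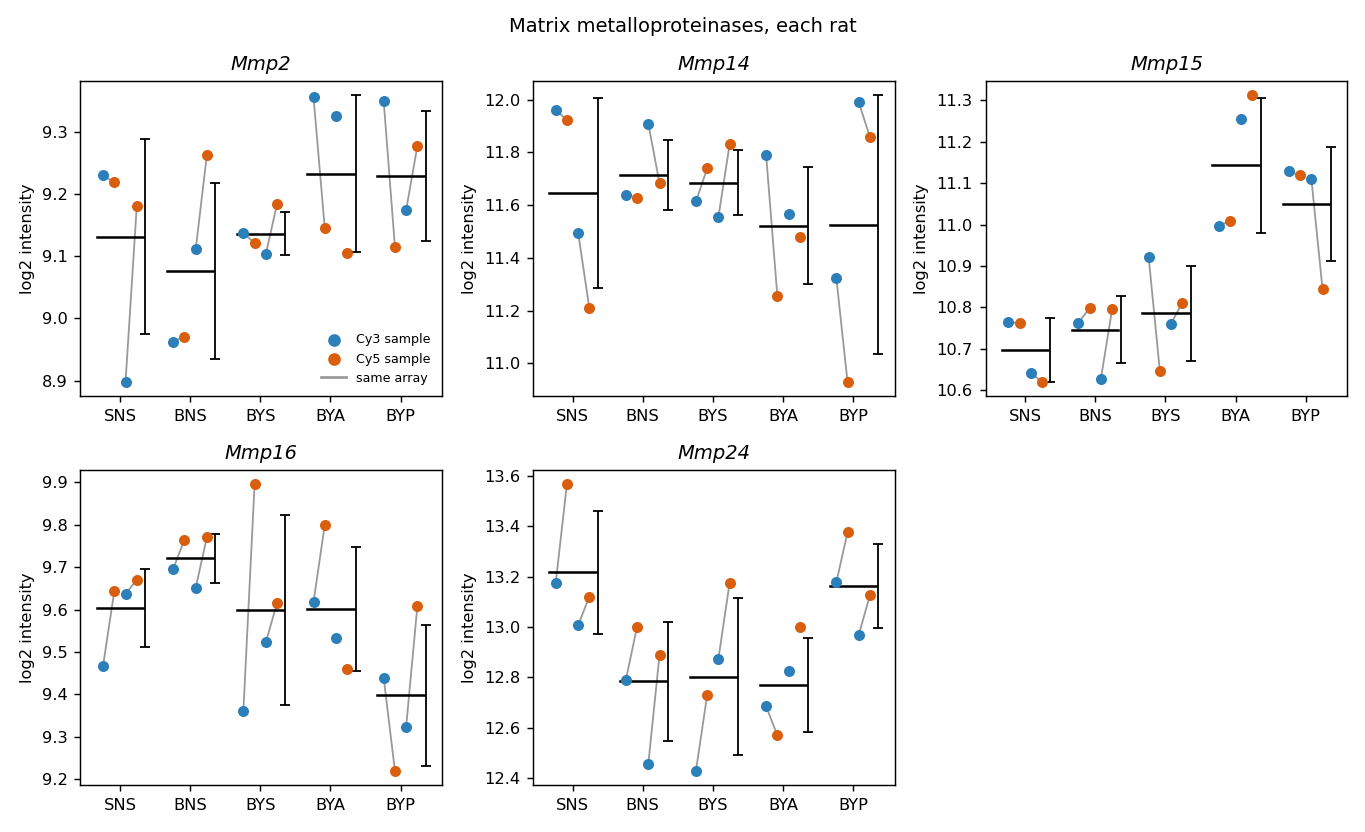
Levels of the 5 metalloproteinases bright enough to test in each rat (vertical axes, log2 normalized intensity) by condition, with dyes in colour, grey lines joining rats on the same array, means as black lines and SD as bars (n = 4). Mmp15 sits at 10.84 to 11.31 in BYA and BYP and at 10.62 to 10.92 in the other conditions, and Mmp24 is lower in BNS, BYS and BYA than in SNS.

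The other genes of the pathway were taken from lists of other metalloproteinases, ADAM and ADAMTS enzymes, activators and other inhibitors, matrix substrates, and partners or shed proteins of TIMP3. Their limma tests, like those of the synapsins and cell markers, took rats on the same array as independent. They were not repeated with the array as a random block. SNS lay on a slide of its own, so every difference from SNS below cannot be told apart from slide. Of the other matrix metalloproteinases, 3 of the 15 on the array were bright enough to test, and none passed against SNS by limma. None had an unadjusted p under 0.05 there either, beside 40.2% to 42.4% of all genes. Of 9 ADAM enzymes tested, 2 fell between BYA and SNS: Adam10, an alpha-secretase, by 0.69 (adjusted p = 0.000519), and Adam17, the enzyme that sheds tumour necrosis factor, by 0.53 (adjusted p = 0.00529). Between BYP and SNS 2 fell and 1 rose, between BNS and SNS 1 fell, and between BYS and SNS none passed. In the last comparison 2 of 9 had an unadjusted p under 0.05, beside 40.2% of all genes. The one that rose in BYP was Adam11, a receptor without protease activity, by 0.35 (adjusted p = 0.0229). Adam11 was well above background in 13 of 20 samples. Without BYA replicate 3 the BYA differences were −0.74 for Adam10 and −0.64 for Adam17, and both passed. Adam10 and Adam17 were also the members that fell in BYP, by 0.40 and 0.36 (adjusted p of 0.0208 and 0.0457), and Adam17 the one that fell in BNS.

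Of 11 ADAMTS enzymes tested, 2 rose and 1 fell between BNS and SNS, 2 rose in BYS, 1 in BYA (2 without BYA replicate 3) and 3 in BYP, each against SNS. Adamts9, which cleaves aggrecan and versican, had means of 8.67 ± 0.06 in SNS, 9.53 ± 0.10 in BNS, 9.79 ± 0.45 in BYS, 9.79 ± 0.26 in BYA and 9.94 ± 0.32 in BYP (SD, n = 4), and all 16 rats of the other conditions lay above the SNS rats. The BYP minus SNS difference was 1.27 (adjusted p = 6.61e-05 by limma). Adamts1 rose by 0.65 in BYP, Adamts7 by 0.47 in BNS, and Adamts18 fell by 0.65 in BNS (limma adjusted p of 0.0472, 0.0185 and 0.0223).

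The plasminogen activators Plat and Plau, whose product plasmin activates metalloproteinase precursors, were above SNS in the conditions named for each below. Of 11 activators and other inhibitors tested, 2 rose and 2 fell in BNS, 4 rose and 2 fell in BYS, 4 rose and 1 fell in BYA, and 5 rose in BYP. Plat, tissue plasminogen activator, rose by 0.97 in BYP (adjusted p = 0.000153), and also in BNS, BYS and BYA (0.86 to 0.95), with 1 SNS rat left out because its spot was marked as an outlier. Plau, urokinase, rose by 1.04 in BYP (limma adjusted p = 0.00654) and passed in BYA (0.0295, or 0.00383 without replicate 3). Plau was well above background in 10 of 20 samples, and its SNS mean, 7.33, was near that of Mmp9 (7.36). Its differences from SNS thus rest on a dim SNS signal. The filter kept probes well above background in all 4 samples of any condition, so in such a dim gene it can favour a rise over SNS. A2m, a broad protease inhibitor, rose by 1.05 in BYP (0.00737), and Pcsk5, a proprotein convertase, by 1.07 in BYA (0.000823, or 0.000861 without replicate 3), both by limma.

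Of 27 matrix substrates tested, 3 rose and 3 fell in BNS, 6 rose and 2 fell in BYS, 7 rose and 1 fell in BYA, and 9 rose and 2 fell in BYP, against SNS. The basement membrane genes Lamb1, a laminin chain, and Nid2, nidogen, were above SNS in all 4 other conditions. Lamb1 had means of 10.09 ± 0.19 in SNS and 11.35 ± 0.16 in BNS (SD, n = 4), a difference of 1.26 (adjusted p = 1.66e-06 by limma). Nid2 rose by 1.24 in BYP (0.000114) and Vtn, vitronectin, by 1.15 in BYA (0.000546, or 0.00119 without replicate 3). Nid2 was well above background in 17 of 20 samples. Cspg5, a brain proteoglycan, fell by 0.90 in BYS (0.0163). The background shares given above for all genes apply to these lists too, and nothing is read as particular to a list. Without BYA replicate 3 the counts between BYA and SNS of the matrix, ADAM, activator and partner lists were the same in number, whereas between BYA and BNS Adam10 and Kdr then passed (−0.67 each, limma adjusted p of 0.0277 and 0.0432), and 1 gene of the partner list between BYP and BYA.

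Of 16 partners and shed proteins of TIMP3 tested, 3 rose in BNS, 1 in BYS, 2 rose and 1 fell in BYA, and 3 rose and 2 fell in BYP, against SNS. Tnf, the cytokine that Adam17 releases, was 8.02 ± 0.44 in SNS and 9.72 ± 0.67 in BYP (SD, n = 4), a difference of 1.697 (adjusted p = 0.00952 by limma). In BYA it was 0.98 (adjusted p = 0.106) with all 4 rats and 1.28 (0.0448) without replicate 3. Tnf was well above background in 17 of 20 samples. Cx3cl1, a chemokine that Adam10 and Adam17 shed, rose by 0.83 in BYP (0.000433). Kdr, the VEGF receptor that TIMP3 binds, rose by 0.52 in BNS (0.00976), and Nrg1, a growth factor, fell by 0.55 in BYP (0.0285). Between BYS and BNS, where Timp3 was described at 0.98, no gene of any of these lists passed by limma. At an unadjusted p under 0.05 it gave 3 of 16 partners, 3 of 27 matrix substrates and 1 of 11 activators and other inhibitors. It gave 1 of 9 ADAM, 0 of 11 ADAMTS and 0 of 3 other metalloproteinases, beside 6.92% of all genes.

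**Figure D5:**
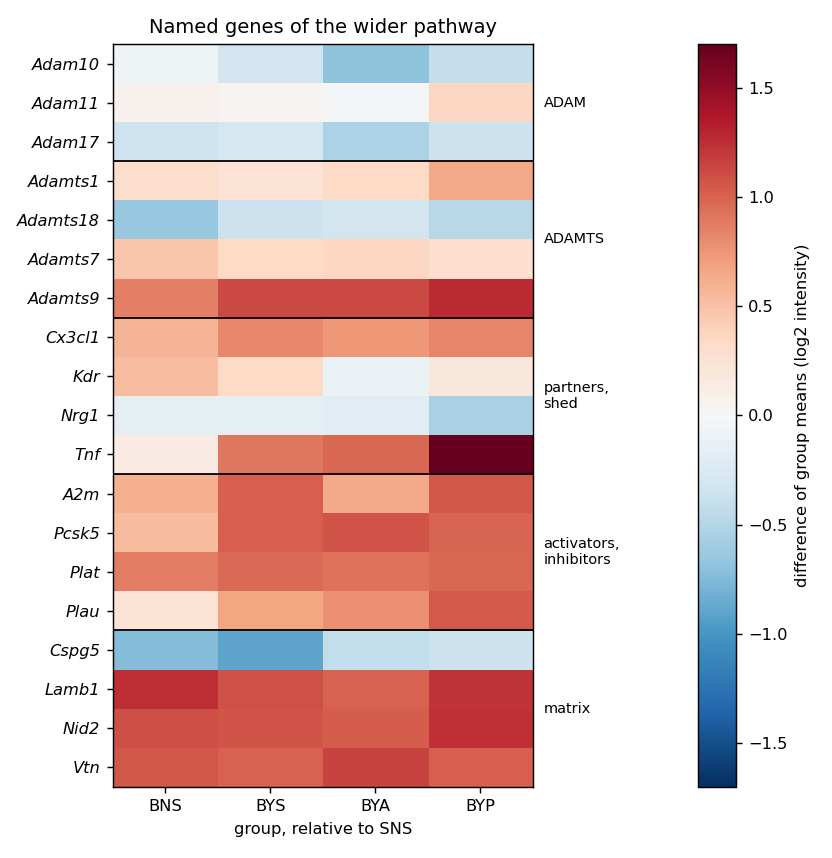
Difference of each condition's mean from the SNS mean (colour, log2 normalized intensity) for the named genes of the pathway lists (rows), in BNS, BYS, BYA and BYP (columns, n = 4 rats each); colours show size and not the test. Lamb1, Nid2, Vtn and Adamts9 are above SNS in every column, and Tnf is highest in BYP, 1.697 above SNS.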

How the data were processed

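Arrays were scanned and read by the authors with Agilent Feature Extraction, given as version 10.7.3.1 in the submitters' processing notes. The deposited mean spot signals, local backgrounds and processed signals are intensities, and flags mark outlier, saturated and well-measured spots. The 82 columns of another series were not used. With limma 3.58.1 in R 4.3.3, backgrounds were corrected by normexp (offset 50), log2 values were quantile normalized over the 20 channels, outlier spots (1.18%) were left out, and spots of a probe and then probes of a gene were averaged. Probes were kept if, in all 4 samples of any condition, a share of at least 0.5 of their spots was flagged well above background (19883 of 30367 probes). Of all probes, 61.4% were named through the accessions of the RefSeq table (GRCr8), and the others kept the name in the files.

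The 10 comparisons were made with limma in 1 fit of the 20 samples with the dye as covariate, two-sided, with Benjamini-Hochberg adjustment over all genes and a threshold of 0.05. Replicates are separate rats. The fit was tested on simulated data without array or slide effects, so that test does not cover the likeness of rats that share an array. The members and the lists were chosen with earlier results of these data known. Named genes were all members, the synapsins, up to 4 genes of each list (3 of marker lists) called with the largest difference, and the 5 genes with the highest correlation with Timp3, of which 1 is not reported here. Alternatives changed the background correction, normalization, filter, probes, blocks, covariate, samples and test. Except for the fits without BYA replicate 3, they were run for the members and not for the lists. Replicate numbers did not pair samples across conditions (mean correlation 0.00310). The number of arrays limits the precision.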

Additional observations from a re-analysis of the deposited data

Results flagged for a closer look

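Among 44 sets of 4 rats, one for each member and condition measured in all 4, a single rat stood apart from the other 3 by Dixon's ratio of its gap to the range in 3 sets, where chance gives about 1 in 20. Mmp15 in BYP replicate 4 was 10.84, below the other 3 at 11.11 to 11.13 (ratio 0.936). Mmp2 in SNS replicate 3 was 8.90, below 9.18 to 9.23 (ratio 0.849). Mmp16 in SNS replicate 1 was 9.47, below 9.64 to 9.67 (ratio 0.83). No Timp3 value was among them.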

How the results depend on the processing

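The described Timp3 differences kept their sign under every alternative. With the processed signals, the BYS minus BNS difference was 1.43, the widest, and leaving out 1 sample gave 0.89 to 1.16. Of the tested Timp3 differences, BYA minus SNS passed with the slide as a random block (0.33, limma adjusted p = 0.0424) and by the methods' t-test before adjustment (0.31), on the gene and on the oligonucleotide, and no other alternative or comparison passed. The slide correlation, −0.128, rests on BYA, since no other condition spans slides.

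The counts of the other members called depended on the processing. Against SNS, the processed signals gave 0 for BNS, BYS and BYA and 1 for BYP, where the counts as reported were 1, 1, 2 and 2. Median scaling gave 0 for BYS and BYA and 1 for BYP. With the array as a random block the count was 0 for BNS, BYS and BYP and 1 for BYA, and the array correlation was 0.365. The slide as a random block gave 2 in BNS and 4 in BYP. The brightest oligonucleotide of each gene gave 2 in BNS. Requiring a signal well above background in all 20 samples gave 1 in BYA and 1 in BYP, no filter gave 1 in BYP, no dye covariate gave 0 in BYS, and a fit of only the 8 samples compared gave 0 in BYS and 1 in BYA. The methods' t-test after adjustment gave 0 for all 4 conditions, and before adjustment 0 in BYS. In the comparisons where no member passed, the slide block gave 1 between BYA and BYS, 1 between BYP and BYA, 1 between BYA and BNS and 4 between BYP and BNS, and the t-test before adjustment 1, 1, 1 and 4, and 1 between BYP and BYS. Between BYS and BNS the count was 0 under all of them.

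Leaving out each sample in turn gave 0 to 2 members for BNS against SNS, 0 to 1 for BYS, 1 to 2 for BYA and again 1 to 2 for BYP. The count in BYP was 1 without any 1 of the SNS rats, BYP replicate 3 or BYP replicate 4, that in BYA 1 without SNS replicate 1, SNS replicate 2 or BYA replicate 2, and that in BNS 2 without BNS replicate 2. The Mmp24 differences changed sign with the processed signals, to 0.0594 for BNS, 0.0901 for BYS and 0.15 for BYA. The cause was not tested. With the replicate block, the counts were 1, 1, 2 and 2 against SNS and 0 elsewhere, and the Timp3 differences of 0.31, 0.16 and −0.15 had limma adjusted p of 0.112, 0.418 and 0.678, so no call changed. Dim oligonucleotides limit Mmp9, Syn3 and one oligonucleotide each of Mmp2 and Mmp15. They also limit named genes of the lists, among them Plau, Adam11, Nrg1, Tnf and Nid2. These were well above background in 10, 13, 15, 17 and 17 of 20 samples. The filter needed only 1 condition to be bright, so it can favour differences in such genes.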
